A study of Mus musculus with 4 samples.

Results

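The genes described here are the receptor for epidermal growth factor (EGF), its close relatives, the growth factors that activate them and a feedback inhibitor, 10 genes in all out of the 15500 listed in a liver expression table. They comprise the ligands Areg, Ereg, Hbegf, Tgfa, Btc and Epgn, the receptors Egfr, Erbb2 and Erbb3, and the inhibitor Errfi1, and they were taken by their symbols. Each of the 10 symbols was listed once. The genes were chosen by their FPKM in these same libraries, which were in view when the set was drawn up, so all levels and ratios below are a description and carry no test.

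RNA was sequenced from livers of male Kunming mice in 4 conditions, with 1 library for each. All mice had 28 days on a supplemented chow. The library called Vehicle came from mice given 1.5% (w/w) linoleic acid (LA), and the library called CLA from mice given 1.5% (w/w) conjugated linoleic acid in its place, which the methods give as c9t11 and t10c12 isomers in equal parts. The library GW6471 came from mice on the LA diet that also received daily intraperitoneal injections of the PPARα antagonist GW6471 (20 mg per kg body weight), and the library CLA+GW6471, also called "with both" below, from mice with the CLA diet and the injections. The mice were bought at 5 weeks of age, and livers of the diet study were collected at zeitgeber time 8, that is, 8 h after the lights came on. Each group held 6 mice, and the sources used here do not state whether a library pools several of them. The labels, not the study's methods, describe the injections, and say only that Vehicle mice had injections of vehicle where these were called for.

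The EGF receptor is a tyrosine kinase of the cell surface, and it pairs with itself or with the relatives encoded by Erbb2 and Erbb3 once a ligand has bound. Its ligands are made as membrane proteins and cut free by proteases of the ADAM family, after which the active receptor signals through RAS and the ERK kinases, through PI3K and AKT, and through STAT factors. In the liver, the receptor is abundant on hepatocytes, and the pathway is known for its part in regeneration after injury. Several of its ligands and inhibitors are themselves targets of the pathway.

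The table gives FPKM, in which fragments are divided by transcript length and by the size of the library, a scale per length on which levels of different genes can be set side by side. It holds no counts, but the steps between low values of short genes placed the depth of the libraries between 18750000 and 19260000 reads. Differences are log2 ratios after 0.1 was added to each FPKM, which makes those of low genes smaller than they are. A 95% counting interval follows each ratio where it matters. It is approximate and covers counting error only, not the difference between mice. A gene was counted as higher or lower from a ratio of 1.5-fold, and the share of all 10355 genes averaging at least 1 FPKM that passed the same ratio is given for each comparison. Of the 10 genes, 8 averaged at least 1 FPKM, and Ereg and Epgn did not.

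The libraries labelled as liver had a marker profile that is unusual for adult liver, which bears on every level given here. Of 16 hepatocyte marker symbols, 13 were listed. The symbols Tf and Trf name the same gene, which was listed as Trf, at 219.56 to 351.19 FPKM. Of the 13, 8 had a mean FPKM under 1, among them Ttr, Fga, Cyp2e1 and Cps1, whereas Alb lay between 620.17 and 1321.55 FPKM. The markers Apoh, Asgr1 and Ttr were at 0 in at least 1 library. The summed FPKM of the hepatocyte markers was 1005 in Vehicle, 1865 on the CLA diet, 1523 with GW6471 alone and 931 with both. In the surface epithelium list, Sprr1a, a small proline-rich protein of barrier epithelia, was at 15810 to 26116 FPKM, and the other 7 genes summed to 42.3 to 66.1 FPKM. Most of that remainder was Sprr1b, at 36.25 to 61.13 FPKM, and 4 of the 8 genes had a mean FPKM under 1, Krt14, Krt6a, Krt16 and Trp63. The cholangiocyte list summed to 405 to 657 FPKM with 7 of 7 genes listed, and Cftr was at 0 in at least 1 library. Of the stellate cell or fibroblast list, 7 of 8 genes were listed and 6 had a mean FPKM under 1, with Dcn as the exception. The macrophage list summed to 24.5 to 37.0 FPKM, the endothelial list to 0.51 to 0.96 FPKM and the lymphocyte list to 0.04 to 0.16 FPKM.

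On chromosome 5, Epgn, Ereg, Areg and Btc lie within 375450 bp of each other in the mouse genome build mm9, the build to which the authors mapped. Epgn occupies chr5:91456490-91464241, Ereg chr5:91503643-91522675 and Areg chr5:91568641-91577458, all on the plus strand, and Btc follows at chr5:91786287-91831939 on the minus strand. Tgfa lies on chromosome 6 (86145420 to 86225151, plus strand), Egfr and Erbb2 on chromosome 11 (16652206 to 16818161 and 98273784 to 98299030, both on the plus strand), Erbb3 on chromosome 10 (128004579 to 128026708, minus strand) and Errfi1 on chromosome 4 (150228028 to 150243001, plus strand). The adjacent ligand genes were at very different levels. Areg was at 144.84 FPKM or more in the 4 libraries, and its neighbours Ereg and Epgn were at 0.03 FPKM or less, with 45965 bp between the annotated ends of Ereg and Areg. The neighbouring genes that encode no EGF ligand, Mthfd2l before Epgn and Parm1 after Btc, had 3.65 to 4.66 FPKM and 5.99 to 8.59 FPKM.

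**Figure D1:**
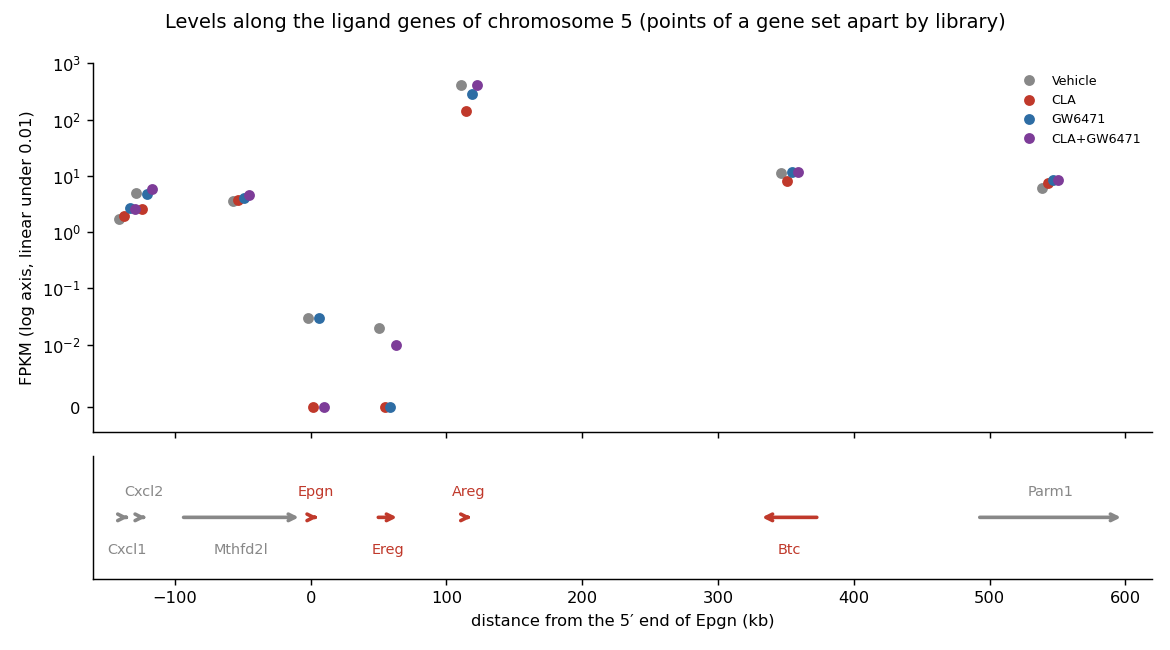
FPKM in the 4 libraries (upper panel, log axis that is linear under 0.01) and the extent and strand of the genes (arrows, lower panel) against the distance in kb from the 5′ end of Epgn in mm9. Areg stands at 144.84 to 411.34 FPKM between Ereg, at 0.02 or less, and Btc, at 8.28 to 11.81.

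Promoter windows of RefSeq (build GRCm38.p6, from 250 bases before to 50 bases after the start) were given for 7 of the 10 genes, and Ereg, Hbegf and Erbb3 had none. The window of Areg (chr5:91139349-91139648, plus strand) and the downstream one of the windows of Errfi1 (chr4:150854820-150855119, plus strand) are printed because they share an arrangement of letters, and those of Epgn (chr5:91027267-91027566, plus strand) and Btc (chr5:91402945-91403244, minus strand) because they belong to the neighbours of Areg at other levels. Capitals mark TGACGTCA, the letters of the cAMP response element, and TATAAA, the letters of a TATA box.
Areg: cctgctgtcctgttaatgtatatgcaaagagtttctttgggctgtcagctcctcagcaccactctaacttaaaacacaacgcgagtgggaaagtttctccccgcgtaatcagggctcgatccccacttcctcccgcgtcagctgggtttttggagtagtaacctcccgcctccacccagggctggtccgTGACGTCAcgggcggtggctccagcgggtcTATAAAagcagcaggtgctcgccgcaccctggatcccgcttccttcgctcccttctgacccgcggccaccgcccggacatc
Errfi1: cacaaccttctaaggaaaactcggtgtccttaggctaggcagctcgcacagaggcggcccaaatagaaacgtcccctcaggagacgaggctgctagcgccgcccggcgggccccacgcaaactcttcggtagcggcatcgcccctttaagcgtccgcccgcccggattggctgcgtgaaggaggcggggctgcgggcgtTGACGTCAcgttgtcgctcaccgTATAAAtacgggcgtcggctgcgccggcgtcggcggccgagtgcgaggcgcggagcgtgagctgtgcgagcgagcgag
Epgn: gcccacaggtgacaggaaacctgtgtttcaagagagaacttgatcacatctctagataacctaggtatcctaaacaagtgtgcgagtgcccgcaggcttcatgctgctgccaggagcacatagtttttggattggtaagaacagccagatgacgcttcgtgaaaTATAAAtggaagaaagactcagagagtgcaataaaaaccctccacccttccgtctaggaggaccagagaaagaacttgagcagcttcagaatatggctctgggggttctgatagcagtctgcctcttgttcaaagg
Btc: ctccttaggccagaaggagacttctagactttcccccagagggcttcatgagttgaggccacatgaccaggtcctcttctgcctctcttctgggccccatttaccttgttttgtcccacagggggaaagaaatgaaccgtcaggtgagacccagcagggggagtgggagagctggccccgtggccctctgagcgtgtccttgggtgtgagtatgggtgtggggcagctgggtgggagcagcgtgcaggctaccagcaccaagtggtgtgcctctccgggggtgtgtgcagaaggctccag

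In these windows, TGACGTCA began 61 bases before the start of Areg and 51 bases before that of Errfi1, and TATAAA followed at 31 and 28 bases before the start. TGACGTCA reads the same on both strands and was counted once, and no match overlapped a match of TATAAA. Of all 32851 windows, 1.79% held TGACGTCA on either strand, 13.6% held TATAAA and 0.171% held both. The window of Epgn held TATAAA at 86 bases before the start, and neither set of letters was in the window of Btc, Tgfa, Egfr or Erbb2. The AP-1 letters TGACTCA, in 5.2% of all windows, 1 form of the serum response element, in 0.0639%, and the direct repeat of AGGTCA with 1 base between that PPARα binds, in 0.0396%, were in none of the windows of the members. The GC box GGGCGG, in 35.7% of all windows, occurred 3 times in the printed window of Errfi1 and 2 times in that of Areg. CG dinucleotides numbered 41 in the printed window of Errfi1 and 21 in that of Areg, against 5 each for Epgn and Btc, 24 for Tgfa, 21 for Erbb2, 15 for Egfr and a median of 7 over all windows. A match of letters is a description of the sequence and not a site.

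Amphiregulin, encoded by Areg, is a ligand of the EGF receptor that is induced by injury and inflammation. Areg was listed at 411.34 FPKM in Vehicle, 144.84 in the CLA library, 288.76 with GW6471 alone and 405.62 with both. Thus the CLA library was low, Vehicle and CLA+GW6471 were high and close to each other, and GW6471 lay between them. In CLA against Vehicle the level was 2.84-fold lower, or -1.51 on the log2 scale (its counting interval ran from -1.56 to -1.45), and 8 of the 10355 genes, Areg included, had a ratio as low or lower. The log2 ratio of CLA+GW6471 to CLA was 1.49 (1.43 to 1.54), 2.80-fold higher. These comparisons share the CLA library, so its low value enters both. GW6471 against Vehicle gave -0.51 (-0.56 to -0.46), and CLA+GW6471 against GW6471 gave 0.49 (0.44 to 0.54), both short of 1.5-fold. In bulk tissue, fewer cells of a type and less RNA per cell cannot be told apart. The libraries with lower Areg, CLA and GW6471, were those with the higher sums of hepatocyte markers, 1865 and 1523 FPKM against 1005 and 931, and without Alb 543 and 456 against 326 and 311. Hnf4a, a hepatocyte transcription factor of the same list, had the other order, with 47.31 and 47.23 FPKM against 54.53 and 51.84. The cholangiocyte sums were 657 and 544 against 474 and 405, but without Spp1 they were 82.2 and 91.3 against 102 and 103. Sox9 carried that turned order, and without it as well the sums were 47.5 and 42.6 against 47.3 and 46.2 FPKM. The surface epithelium sum was lowest in CLA, at 15865 FPKM, against 18837 to 26180 in the other libraries, and without Sprr1a it was 54.5 in CLA and lowest in GW6471, at 42.3, against 66.1 in Vehicle and 64.2 with both. The sums without Sprr1a were mostly Sprr1b, at 47.23 and 36.25 FPKM in CLA and GW6471 against 61.13 and 59.28. Krt5 of the same list was highest in CLA, at 4.29 FPKM. Ivl was higher in CLA and GW6471, at 2.57 and 2.96 FPKM against 1.68 and 1.72. The stellate cell or fibroblast sum, nearly all Dcn, was 1508 and 1351 in CLA and GW6471 against 1289 and 1149 in Vehicle and with both, and the macrophage sum, nearly all Cd68, was 37.0 and 26.0 against 24.5 and 25.3. The part of these markers in the level of Areg was not tested.

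Hbegf encodes heparin-binding EGF-like growth factor, a further injury-responsive ligand. Its level was 114.09 FPKM in Vehicle, 78.26 on the CLA diet, 95.33 with GW6471 alone and 104.36 with both. The libraries stood in the same order as for Areg, over a narrower range, the highest being 1.46 times the lowest, against 2.84 times for Areg. The log2 ratio was -0.54 (-0.61 to -0.48) in CLA against Vehicle, just short of 1.5-fold, and -0.26 (-0.32 to -0.20) in GW6471 against Vehicle. It was 0.41 (0.35 to 0.48) in CLA+GW6471 against CLA and 0.13 (0.07 to 0.19) in CLA+GW6471 against GW6471.

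Betacellulin, the product of Btc, binds both the EGF receptor and its relative ErbB4. Btc had 11.32 FPKM in Vehicle, 8.28 in the CLA library, 11.81 with GW6471 alone and 11.77 with both. The CLA library stood apart here, and the other 3 lay between 11.32 and 11.81 FPKM. The log2 ratio of CLA to Vehicle was -0.45 (-0.63 to -0.27), and that of CLA+GW6471 to CLA was 0.50 (0.33 to 0.69). In GW6471 against Vehicle it was 0.06 (-0.10 to 0.23), and in CLA+GW6471 against GW6471 -0.0049 (-0.17 to 0.16).

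Tgfa encodes transforming growth factor α, a ligand well known from hepatocyte growth. With 40.23 FPKM in Vehicle, 37.11 on the CLA diet, 44.24 with GW6471 alone and 44.36 with both, it varied least among the ligands, its highest library being 1.20 times its lowest. The log2 ratio of CLA to Vehicle was -0.12 (-0.19 to -0.04), that of GW6471 to Vehicle 0.14 (0.06 to 0.21) and that of CLA+GW6471 to CLA 0.26 (0.18 to 0.33). CLA+GW6471 and GW6471 differed by 0.0039 (-0.07 to 0.08), a value within counting error.

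Epiregulin (Ereg) and epigen (Epgn), further ligands of the receptor, were at or near 0 in every library. Ereg was listed at 0.02 FPKM in Vehicle, 0.01 in CLA+GW6471 and 0 in CLA and GW6471, which corresponds to 2 reads at most. Epgn was listed at 0.03 FPKM in Vehicle and GW6471 and at 0 in CLA and CLA+GW6471, or 1 read at most. A value of 0 can be a failed estimate in such a table. No difference was detectable at this depth, since all values lay under the 3 reads that a count of 0 allows, and no fold is given.

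Summed over the 6 ligands, the level was 577 FPKM in Vehicle, 268 in the CLA library, 440 with GW6471 alone and 566 with both. Areg made up 71.3% of the sum in Vehicle, 53.9% in the CLA library, 65.6% with GW6471 alone and 71.6% with both. Without Areg, the sums were 166, 124, 151 and 160.5 FPKM in the same order of libraries, so the CLA library was the lowest also without its most abundant ligand. Ordered by mean FPKM, the ligands were Areg (313), Hbegf (98), Tgfa (41.5), Btc (10.8), Epgn (0.015) and Ereg (0.0075). This order from Areg to Btc held in each of the 4 libraries, with no overlap between the ranges of neighbours, whereas Epgn and Ereg did not differ beyond counting error.

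**Figure D2:**
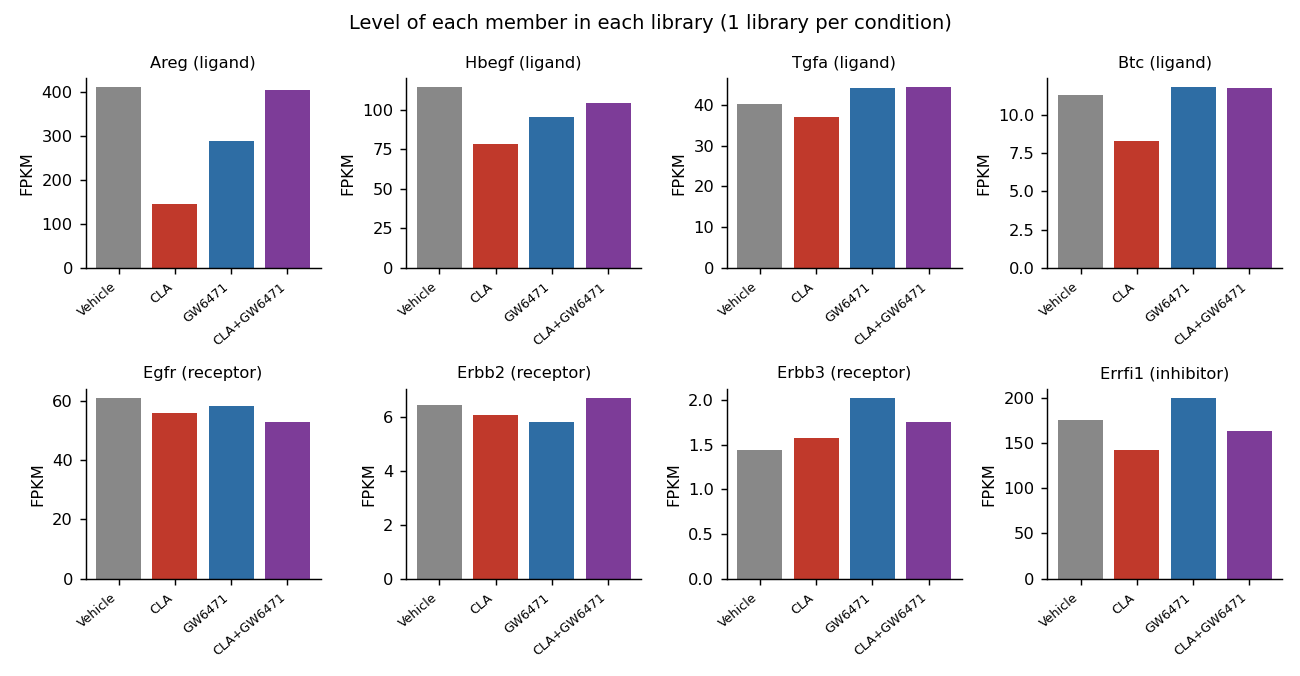
FPKM (vertical axes, starting at 0) of the 8 genes averaging at least 1 FPKM in Vehicle, CLA, GW6471 and CLA+GW6471, 1 bar per library and no error bar, since each condition has 1 library. The CLA bar is the lowest for Areg, Hbegf, Tgfa, Btc and Errfi1, and the 3 receptors stay between 52.91 and 60.88 (Egfr), 5.81 and 6.70 (Erbb2) and 1.44 and 2.02 (Erbb3).

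The receptors varied less than Areg and Hbegf did. Egfr, the receptor of all 6 ligands, had 60.88 FPKM in Vehicle, 55.84 on the CLA diet, 58.36 with GW6471 alone and 52.91 with both. It was a little lower with the CLA diet than without it, both without the antagonist (-0.12, counting interval -0.16 to -0.09) and with it (-0.14, -0.18 to -0.10), and these 2 ratios share no library. Both ratios were ordinary, with 36.5% and 30.5% of all genes as low or lower. Egfr made up 86.2% to 88.5% of the summed FPKM of the 3 receptors. Erbb2 encodes a partner receptor that binds no ligand of its own. Its level was 6.46 FPKM in Vehicle, 6.09 in the CLA library, 5.81 with GW6471 alone and 6.70 with both. The difference between CLA+GW6471 and GW6471, a log2 ratio of 0.20 (0.04 to 0.37), was beyond counting error, and the other 3 comparisons were not.

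Erbb3 encodes a neuregulin receptor whose own kinase is weak. Its level was 1.44 FPKM in Vehicle, 1.57 on the CLA diet, 2.02 with GW6471 alone and 1.75 with both, and the estimated reads, from 162 to 232 per library, leave wide intervals. GW6471 was above Vehicle by 0.46 (0.19 to 0.79), and the other 3 ratios of Erbb3 lay within counting error. In order of level the receptors were Egfr, Erbb2 and Erbb3 in every library. The ratio of the summed ligands to the summed receptors was 8.39 in Vehicle, 4.23 in the CLA library, 6.65 with GW6471 alone and 9.23 with both. The receptor sums in this ratio ran from 61.4 to 68.8 FPKM.

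Errfi1 (also called Mig6) encodes an inhibitor that binds the active kinase of the EGF receptor and is itself induced by receptor signalling. It had 175.57 FPKM in Vehicle, 142.20 on the CLA diet, 199.93 with GW6471 alone and 163.10 with both. Both libraries of the CLA diet were below both libraries of the LA diet. The log2 ratio was -0.30 (-0.35 to -0.26) in CLA against Vehicle and -0.29 (-0.33 to -0.25) in CLA+GW6471 against GW6471, which share no library. Of all 10355 genes, 18.2% had a ratio as low or lower in the first comparison and 15.4% in the second. With the antagonist the level was higher in either diet, by 0.19 (0.15 to 0.23) in GW6471 against Vehicle and by 0.20 (0.16 to 0.24) in CLA+GW6471 against CLA. None of the 4 ratios reached 1.5-fold. Errfi1 was 2.55 to 3.43 times as abundant as Egfr, by FPKM.

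Read across the 8 genes averaging at least 1 FPKM, CLA against Vehicle had 7 lower and 1 higher, beside 50.9% of all genes below 0 and 48.9% above. From 1.5-fold, 1 was lower, Areg, and 0 were higher, beside 4.95% of all genes lower and 7.30% higher. The median log2 ratio of the 8 genes was -0.21 against -0.0071 over all genes. CLA+GW6471 against CLA, which shares the CLA library, had 7 higher and 1 lower, beside 50.9% of all genes above 0 and 49.0% below, with 1 gene, again Areg, higher from 1.5-fold and 0 lower, beside 6.84% of all genes higher and 9.15% lower. Its median was 0.23, against 0.0090 over all genes. In GW6471 against Vehicle, 0 of the 8 genes passed 1.5-fold in either direction, beside 3.28% of all genes higher and 2.10% lower, and the median was -0.0001. In CLA+GW6471 against GW6471 there were also 0, beside 2.81% higher and 3.88% lower, with a median of -0.0005. Thus Areg was the 1 member past 1.5-fold, in both comparisons that hold the CLA library.

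**Figure D3:**
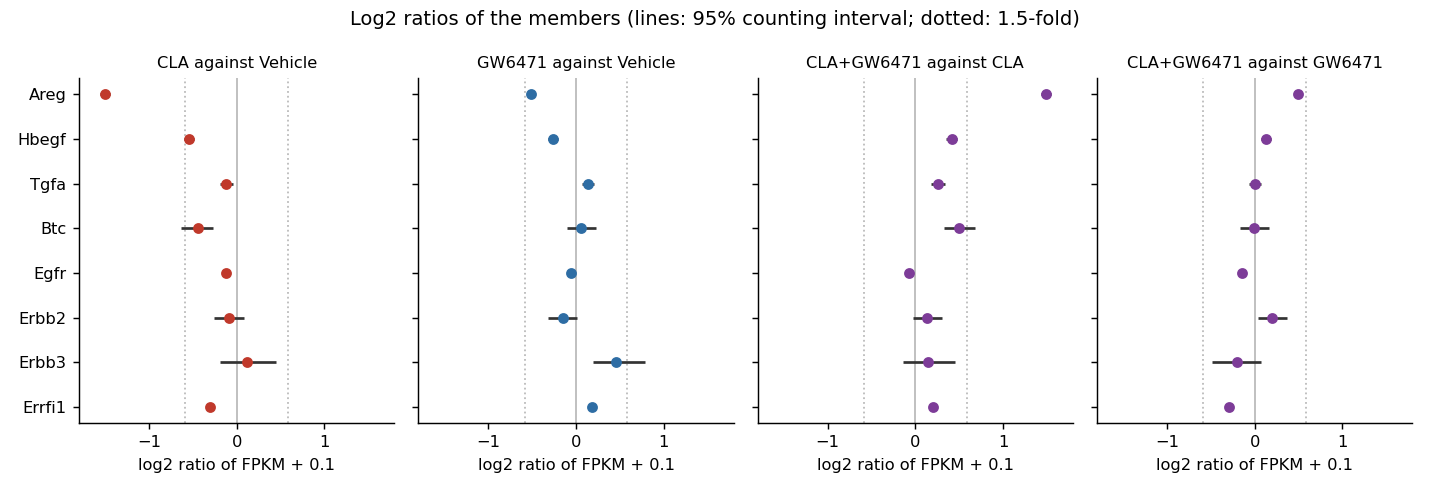
Log2 ratios of FPKM + 0.1 of the 8 genes in the 4 comparisons (points), with 95% counting intervals (lines) and the 1.5-fold limits (dotted). Areg lies at -1.51 in CLA against Vehicle and at 1.49 in CLA+GW6471 against CLA, and no other gene passes a dotted line.

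**Figure D4:**
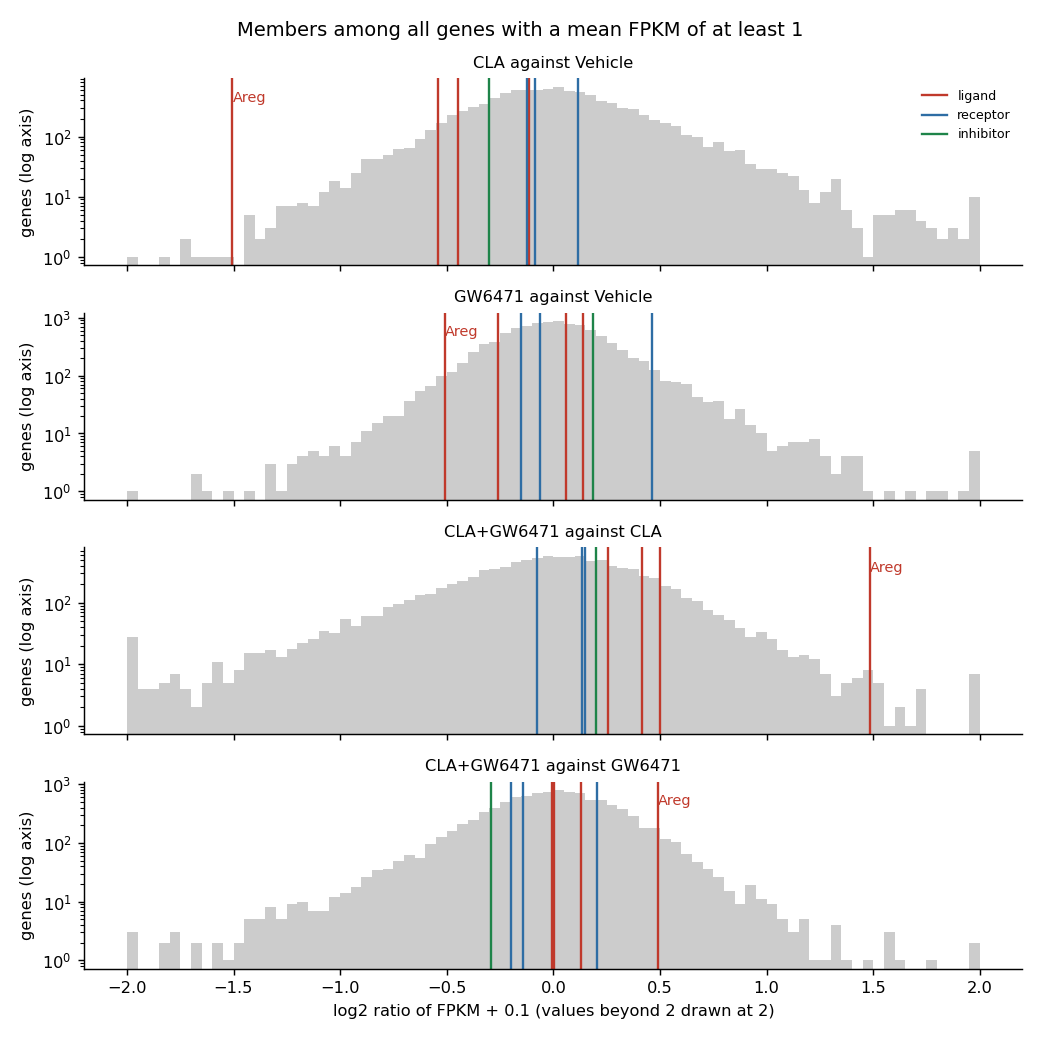
Histograms of the log2 ratios of 10355 genes (horizontal axis, values beyond 2 drawn at 2; vertical axis, number of genes on a log axis) for the 4 comparisons, with vertical lines at the ligands, receptors and the inhibitor. Areg is in the lower tail of all genes in CLA against Vehicle, with 8 genes as low or lower, and in the upper tail in CLA+GW6471 against CLA, with 23 as high or higher.

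The layout of diet and antagonist allows the ratio of the CLA diet to the LA diet to be read without and with GW6471, from pairs that share no library. For Areg it was -1.51 without and 0.49 with the antagonist, a difference of 2.0 on the log2 scale, and 99.6% of all genes had a smaller difference. Hbegf went from -0.54 to 0.13, a difference of 0.67, above 88.0% of all genes, and Btc from -0.45 to -0.0049, a difference of 0.44. The difference was 0.29 for Erbb2, 0.12 for Tgfa, 0.0104 for Errfi1, -0.0167 for Egfr and -0.31 for Erbb3, and the median over all genes was 0.0156. Thus Errfi1 and Egfr had about the same ratio of the diets in both pairs, and Areg had ratios of opposite sign. With 1 library per condition, none of these differences was tested, and a trait of a single library cannot be told apart from an effect of the treatments.

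The genes whose 4 values were most like those of Areg were sought by the Euclidean distance between log2 values centred on their mean, over the 4 libraries. Nearest were the predicted gene Gm4340 (2.26, 0.67, 1.50 and 2.24 FPKM in Vehicle, CLA, GW6471 and CLA+GW6471), Shroom4 (4.33, 1.57, 2.80 and 4.38 FPKM) and Slc25a25, a mitochondrial carrier (22.98, 9.33, 16.53 and 25.60 FPKM), at distances of 0.095, 0.144 and 0.180. For Erbb3, the receptor with the widest range, they were Acvr2a, Trpc1 and Tnfaip2, at distances of 0.033, 0.034 and 0.058. Errfi1 was nearest to Ube3a, Adamts1 and Pds5a, at 0.030, 0.031 and 0.035. With 4 values per gene and 10355 genes, close profiles are common, and nothing is read from them.

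Other genes of EGF receptor signalling were read from 10 lists of 138 genes in all, of which 116 averaged at least 1 FPKM. In CLA against Vehicle, 9 (7.76%) of the 116 were higher and 7 (6.03%) lower from 1.5-fold, close to the 7.30% and 4.95% of all genes, and their median log2 ratio was 0.05. In GW6471 against Vehicle 4 (3.45%) were higher and 0 lower, beside 3.28% and 2.10% of all genes. In CLA+GW6471 against CLA 10 (8.62%) were higher and 11 (9.48%) lower, beside 6.84% and 9.15%, and in CLA+GW6471 against GW6471 1 (0.862%) was higher and 4 (3.45%) lower, beside 2.81% and 3.88%. Most of these shares were near those of all genes, and the counts of the single lists, with 1 to 23 genes each, are small and are given as descriptions. The direction differed between the lists.

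Among the remaining genes of the receptor family and its ligands, 4 of 6 were listed. Nrg1, which encodes the ErbB3 and ErbB4 ligand neuregulin-1, was the only one averaging at least 1 FPKM, at 35.65 FPKM in Vehicle, 30.38 in the CLA library, 36.46 with GW6471 alone and 41.90 with both. Egf itself was at 0.12 to 0.25 FPKM, and Erbb4 was not among the listed genes. Of the proteases that release the ligands and their cofactors, 7 averaged at least 1 FPKM, and 0 passed 1.5-fold in any comparison. Adam10 was the highest of them in CLA against Vehicle, at 0.26 on the log2 scale, and Rhbdf2, a cofactor of the main sheddase Adam17, the lowest, at -0.19. The adaptors of RAS activation held 14 such genes, and 1 was lower in CLA against Vehicle, beside 4.95% of all genes. This was Gab2, a docking protein, with 6.21 FPKM in Vehicle, 3.98 on the CLA diet, 5.40 with GW6471 alone and 7.09 with both. With a pseudocount of 1 the count was 0. The highest of that list was Grb7, at 0.15.

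Of 10 kinases and scaffolds from RAF to ERK, 7 had a log2 ratio above 0 in CLA against Vehicle and 3 below, with a median of 0.13. From 1.5-fold, 4 were higher in CLA against Vehicle (Ksr1, Map2k1, Mapk3 and Rps6ka1) and 0 lower, beside 7.30% and 4.95% of all genes. The same 4 were lower in CLA+GW6471 against CLA, which shares the CLA library, beside 9.15% of all genes. With a pseudocount of 1 the count in CLA against Vehicle was 2, and from 2-fold it was 1. Mapk3, an ERK kinase, had 112.68 FPKM in Vehicle, 178.19 in the CLA library, 139.63 with GW6471 alone and 109.84 with both. Rps6ka1, a kinase activated by ERK, had 5.28, 11.37, 8.67 and 6.24 FPKM in this order of libraries and the highest ratio of the list, 1.09. In the PI3K and AKT list, 1 of 13 genes was lower in CLA against Vehicle, the catalytic subunit gene Pik3cb (-0.59), beside 4.95% of all genes. Higher were 0, beside 7.30% of all genes, with Pik3cd at 0.58 just short of 1.5-fold. Both genes lie at the limit, and with libraries scaled by the median of ratios the count was 1 higher and 0 lower. The STAT list had 0 of 6 past 1.5-fold, with all 6 ratios above 0, from 0.06 for Stat3 to 0.46 for Jak2. For receptor endocytosis, 0 of 15 passed in any comparison, and the ratios in CLA against Vehicle ran from -0.20 for Rab5a to 0.21 for Eps15.

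Of 23 inhibitors of the receptor and of RAS and ERK, 1 was higher and 2 lower in CLA against Vehicle, beside 7.30% and 4.95% of all genes. Socs2, a suppressor of cytokine signalling, was higher by 0.59, just past the limit, and was not counted with a pseudocount of 1 or with libraries scaled to the same FPKM sum. Dusp5, an ERK phosphatase that ERK signalling induces, was the lowest at -0.90, with 75.78 FPKM in Vehicle, 40.52 on the CLA diet, 65.16 with GW6471 alone and 96.77 with both, and Rasa1, which inactivates RAS, had 31.21, 19.66, 27.13 and 29.87 FPKM. The 3 genes were past 1.5-fold in the opposite direction in CLA+GW6471 against CLA, which shares the CLA library. Rasa1, at 0.60, was close to the limit there, and with a pseudocount of 1 the count of higher genes was 1 instead of 2. The ERK phosphatase gene Dusp6, a common readout of the pathway, stayed between 219.13 and 241.46 FPKM.

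The list of immediate early genes and ERK targets had 17 genes. In CLA against Vehicle, 1 was higher and 3 lower, beside 7.30% and 4.95% of all genes, or 5 lower with libraries scaled to the same FPKM sum. In CLA+GW6471 against CLA, which shares the CLA library, 6 were higher (Egr2, Fosl1, Jun, Jund, Myc and Phlda1) and 0 lower, beside 6.84% and 9.15% of all genes. The lower ones in CLA against Vehicle were Jun (17.52 FPKM in Vehicle, 8.02 in the CLA library, 18.69 with GW6471 alone and 22.27 with both), Myc (386.83, 203.56, 279.68 and 408.62 FPKM) and Fosl1 (173.77, 98.46, 135.43 and 204.49 FPKM), transcription factors of growth responses. Ier3 was higher, with 43.49 FPKM in Vehicle, 70.76 on the CLA diet, 66.26 with GW6471 alone and 47.38 with both. Myc and Fosl1 had their libraries low in CLA, intermediate in GW6471 and high in the other 2, as Areg did, whereas Egr1, at 146.94, 158.38, 213.25 and 147.85 FPKM, and Fos, at 5.88, 8.32, 10.49 and 6.41 FPKM, were highest in GW6471. Of 16 growth factor and receptor genes outside the EGF family, 10 averaged at least 1 FPKM. Of these, 3 were higher in CLA against Vehicle (Fgf1, Fgfr4 and Igf2) and 0 lower, beside 7.30% and 4.95% of all genes. The same 3 were lower in CLA+GW6471 against CLA, which shares the CLA library, beside 9.15% of all genes. Fgf1 had the highest ratio, 1.63, at 0.89 FPKM in Vehicle and 2.97 in CLA, and Met, the receptor of hepatocyte growth factor, the lowest, -0.18.

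**Figure D5:**
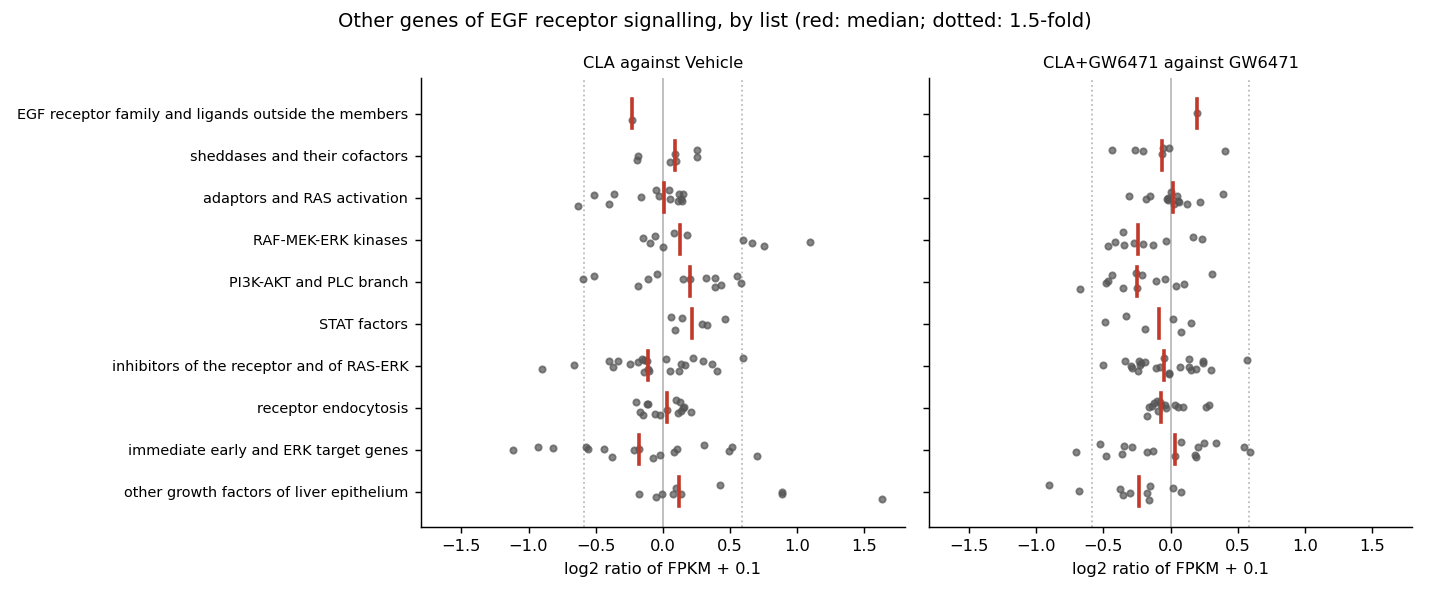
Log2 ratios of FPKM + 0.1 of single genes (points) in each list of EGF receptor signalling, in CLA against Vehicle (left) and in CLA+GW6471 against GW6471 (right), with medians (red) and the 1.5-fold limits (dotted). On the left, 4 points of the RAF to ERK list lie right of the upper limit and 3 of the immediate early list left of the lower one.

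Genes with the letters TGACGTCA in a promoter window were set beside all genes with a window, themselves included, a comparison chosen after the match in Areg and Errfi1 was seen. Outside the members, 292 such genes averaged at least 1 FPKM. Their median log2 ratio in CLA against Vehicle was -0.12, against -0.0106 for the 7855 genes with any window, and 8.22% were lower and 2.74% higher from 1.5-fold, against 4.89% and 6.91%. In CLA+GW6471 against GW6471 the median was 0.05, with 4.11% higher and 1.03% lower, against 2.58% and 3.63% of genes with any window. The 20 genes with TGACGTCA and TATAAA in 1 window, as in Areg and Errfi1, had medians of -0.16 and 0.09 in these comparisons. In CLA against Vehicle 0% of them were higher, and in CLA+GW6471 against GW6471 0% passed 1.5-fold either way. For the AP-1 letters TGACTCA, the median of 364 genes in CLA against Vehicle was 0.01, with 7.42% higher and 7.69% lower. That share lower was near the 8.22% for TGACGTCA, and the share higher was not near its 2.74%. In CLA+GW6471 against GW6471, 3.85% of the AP-1 genes were higher and 4.12% lower. These shares are a description of the libraries and were not tested.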

How the data were processed

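Liver RNA was sequenced on an Illumina HiSeq from TruSeq libraries. The authors aligned the reads (BWA, Bowtie; mm9), estimated expression by Cufflinks (per the submitters' processing notes, versions not given in the sources used here) and deposited FPKM with 2 decimals, 1 column per library, for 15500 genes. The table names no unit, which was taken from a supplement of the study that gives the Vehicle and CLA values as FPKM, and assumed for the other columns. No further normalisation was applied, and 0.1 was added before taking log2. Depth was estimated from 511 genes with a single transcript under 1000 nt, as the number of reads at which FPKM times length (0.02 to 0.5 in kb) came nearest to whole numbers, from 132 to 140 values per library. Counting intervals are exact Clopper-Pearson intervals on these reads, with the longest coding transcript of GENCODE vM1 as length. The steps were tested on simulated data. Scripts ran under Python 3.11.15 (scipy 1.17.1, pandas 2.3.3, numpy 2.4.6, matplotlib 3.10.9).

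With 1 library for each condition there is no replicate error, and conditions were not tested against each other. The members and lists were chosen with earlier results of these data known. Named genes were the 10 members, in each list the gene with the highest and the lowest log2 ratio of CLA to Vehicle (averaging at least 1 FPKM), and the 3 nearest profiles for the member of each role with the widest range. Others were named after their values were seen. The lowest gene of 1 list is not reported here. Alternatives were other pseudocounts, 2 scalings, other filters and a 2-fold limit.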

Additional observations from a re-analysis of the deposited data

Results flagged for a closer look

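The ratio of the CLA diet to the LA diet had opposite signs without and with GW6471, beyond counting error in both pairs, for Areg and Hbegf. For Areg the log2 ratio was -1.51 without and 0.49 with the antagonist, a difference of 2.0. For Hbegf it was -0.54 and 0.13, a difference of 0.67, and the second ratio was 0.06 with libraries scaled to the same FPKM sum. The difference was not tested, since each condition has 1 library.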

How the results depend on the processing

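No paired analysis was possible because each condition has 1 library. Of 128 log2 ratios of single members under another pseudocount or scaling, 122 stayed within their counting interval and 6 moved beyond it, with libraries scaled to the same FPKM sum. These 6 lay 0.043 to 0.066 from the ratios as reported, a shift counted from the ratio and not from the end of its interval. Among the 6, Hbegf in CLA+GW6471 against GW6471 went from 0.13 to 0.06 and Egfr in GW6471 against Vehicle from -0.06 to -0.02. The largest shift of all was 0.15, for Erbb3 in GW6471 against Vehicle with a pseudocount of 1, and 1 ratio changed sign, that of Tgfa in CLA+GW6471 against GW6471, which was -0.06 with that scaling. None of the 32 differences of the CLA ratio with and without GW6471 was counted as moved. That of Errfi1, near 0, changed sign. It went from 0.0104 to -0.0251 with libraries scaled to the same FPKM sum and to -0.0024 with the median of ratios. The number of members past 1.5-fold was the same with each pseudocount and scaling tried and when counted from 2-fold. The median log2 ratio of the 8 members ran from -0.24 to -0.20 in CLA against Vehicle and from 0.22 to 0.23 in CLA+GW6471 against CLA over the pseudocounts and scalings. With libraries scaled to the same FPKM sum it went from -0.0001 to 0.04 in GW6471 against Vehicle, a change of sign of a value near 0, and from -0.0005 to -0.07 in CLA+GW6471 against GW6471. Scaling shifted the median of all genes by at most 0.065 in size, in CLA+GW6471 against GW6471 (-0.065).

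Counted from 2-fold, the 116 list genes numbered 2 higher and 1 lower in CLA against Vehicle, 0 higher in GW6471 against Vehicle, 4 higher and 2 lower in CLA+GW6471 against CLA, and 0 and 0 in CLA+GW6471 against GW6471. Counted from 1.5-fold, CLA+GW6471 against GW6471 had 2 lower with a pseudocount of 1 and 0 higher with libraries scaled to the same sum, against 4 lower and 1 higher as reported. Of all genes, 1.79% were higher and 0.744% lower from 2-fold in CLA against Vehicle, 0.560% and 0.309% in GW6471 against Vehicle, then 1.27% and 2.67% in CLA+GW6471 against CLA, and 0.357% and 0.802% in CLA+GW6471 against GW6471. With a mean FPKM of at least 5, from 1.5-fold, these were 2.07% and 1.18% in GW6471 against Vehicle, and CLA+GW6471 against GW6471 had 1.87% and 2.50%. With no filter, they were 5.2% and 4.83% in GW6471 against Vehicle, and 5.42% were higher in CLA+GW6471 against GW6471. Of 400 counts of single lists, 359 stayed within 1.5 times and 41 moved. Many of the counts were 0 and stayed 0, so the 359 say little about the counts above 0.

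Depth limits the values of Ereg, Epgn and Erbb3. Single libraries limit all of them, since no spread between mice can be given.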

Other observations

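The chemokine gene Cxcl2, named after its values were seen, lies before the ligand genes on chromosome 5 and had 4.94 FPKM in Vehicle, 2.61 in the CLA library, 4.67 with GW6471 alone and 5.87 with both. As for Areg, the CLA library was the lowest and GW6471 the next. Its neighbour Cxcl1 had 1.74, 1.94, 2.65 and 2.61 FPKM in the same order of libraries and did not share this order.

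Sox9, a transcription factor of cholangiocytes and of liver progenitors, had 54.74 FPKM in Vehicle, 34.72 on the CLA diet, 48.67 with GW6471 alone and 57.05 with both, the order of libraries seen for Myc and Fosl1.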
